A study of Paralichthys olivaceus with 6 samples.

Results

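Axon guidance ligands and receptors were described in the hindbrain of the olive flounder, Paralichthys olivaceus, a flatfish raised in aquaculture, in a study that compared fish selected as bold with fish selected as shy. The genes were taken by their identifiers, which had to begin like an ephrin, Eph receptor, semaphorin, plexin, neuropilin, netrin, netrin-G, DCC, UNC5, slit, Robo or RGM gene. The rule found 49 of the 24395 identifiers in the count files. One of them, unc50, fits the spelling only, because it encodes a membrane protein of the Golgi apparatus and is no netrin receptor, so 48 guidance genes are described here, 24 in ligand families and 24 in receptor families. RNA-seq read counts came from 3 libraries with bold personality in their title and 3 with shy personality. The fish weighed 101.06 ± 6.39 g (mean ± SD, per the labels) and were held at 18 °C, no genotype, age or treatment other than the selection is given, and whether a library is 1 fish or a pool is not given. The title and the source name give one personality and the personality characteristic gives the opposite one for every library, so the names titled bold and titled shy are used, and each direction turns around if the characteristic is right.

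Guidance cues tell a growing axon where to turn. Ephrins are bound to the cell surface and are read by Eph receptor tyrosine kinases. Semaphorins act through plexins, with neuropilins as co-receptors for most of the secreted class 3 members. Netrins attract through DCC and repel through UNC5 receptors, slits repel through Robo receptors, and RGM proteins bind neogenin. In the mature brain the same proteins are known from synapses, glia and blood vessels.

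Library totals lay between 18081694 and 22805563 counts, and the 48 genes together took between 0.201% and 0.226% of them. Levels are given as CPM, counts scaled to a common library total after TMM, a correction for library composition. A count of 3 corresponded to between 0.132 and 0.166 CPM. Transcript lengths were not used here, so CPM of different genes, as in the order of genes in the plots, show how many reads stand behind a gene and not how abundant its transcript was. Less RNA per cell and fewer cells of a type cannot be told apart in these tissue samples. The library titled bold 2 stood apart from the others on the first principal component over all tested genes, which held 43.5% of the variance. Of 17 identifiers of hindbrain and spinal position, 8 had enough reads for testing and hoxb2, hoxd3 and phox2a had no read, while mafba averaged 21.1 CPM and gata3 26.2 CPM. Of 19 identifiers of forebrain and midbrain position 11 were tested, among them six3 at 46.0 CPM and nkx2.4b at 36.0 CPM, so the labelled hindbrain tissue also held transcripts of such markers.

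All 48 guidance genes were detected in every library and all 48 passed the filter on low counts. The fewest reads stood behind unc5a, with a mean of 2.51 CPM over the 6 libraries, and the most behind nrp2, with 159 CPM, while 35 of the 48 averaged at least 10 CPM.

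**Figure D1:**
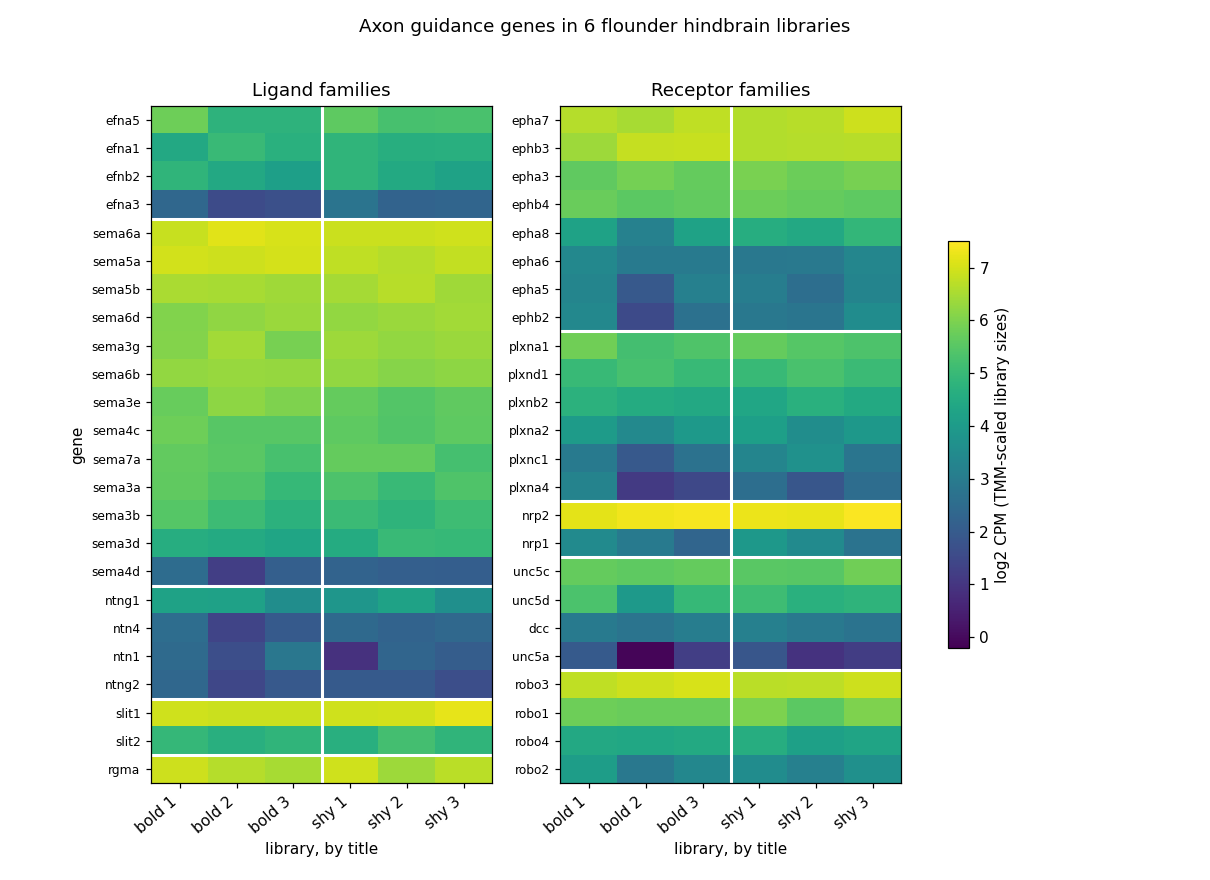
Levels of 24 ligand genes (left) and 24 receptor genes (right) in the 3 titled bold libraries and the 3 titled shy libraries, as log2 CPM by colour. White lines part the families and the groups, and rows such as plxna4, ephb2 and unc5a are darkest in titled bold 2.

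Between the title groups, no guidance gene passed edgeR's quasi-likelihood test across all genes (0 of 48 called at a threshold of 0.05 after Benjamini-Hochberg adjustment, smallest adjusted p 0.955). The background was the same, with 0 of 19755 tested genes called, or 0%. DESeq2 and limma-voom called 0 of the 48 as well, and DESeq2 called 0.0638% of all genes. At an unadjusted p under 0.05 stood 4 of the 48 genes, sema3e and sema5a with higher and epha8 and sema3d with lower levels in titled bold libraries. Of all tested genes 3.49% had such a p, 1.74% with higher and 1.75% with lower levels. The median log2 fold of titled bold over titled shy was -0.03 over the 48 genes and -0.01 over all tested genes. Of the 48 folds 21 were above 0 and 27 below, where 51.7% of all tested genes were below 0. In 5 genes the groups did not overlap, sema3e, sema5a and sema6b with the titled bold libraries above and epha8 and slit1 with them below, where the groups did not overlap in 9.53% of all tested genes, 4.53% above and 5% below. SEs of single log2 folds ran between 0.09 and 0.53, and were widest for plxna4 and unc5a. With 3 libraries per group a difference of 1 log2 unit was not detectable in these genes. Narrower SEs do not show that such a difference would have been called in the others. Adjustment over 19755 genes asks for far smaller p-values than 0.05. Which folds could have been called was not tested.

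**Figure D2:**
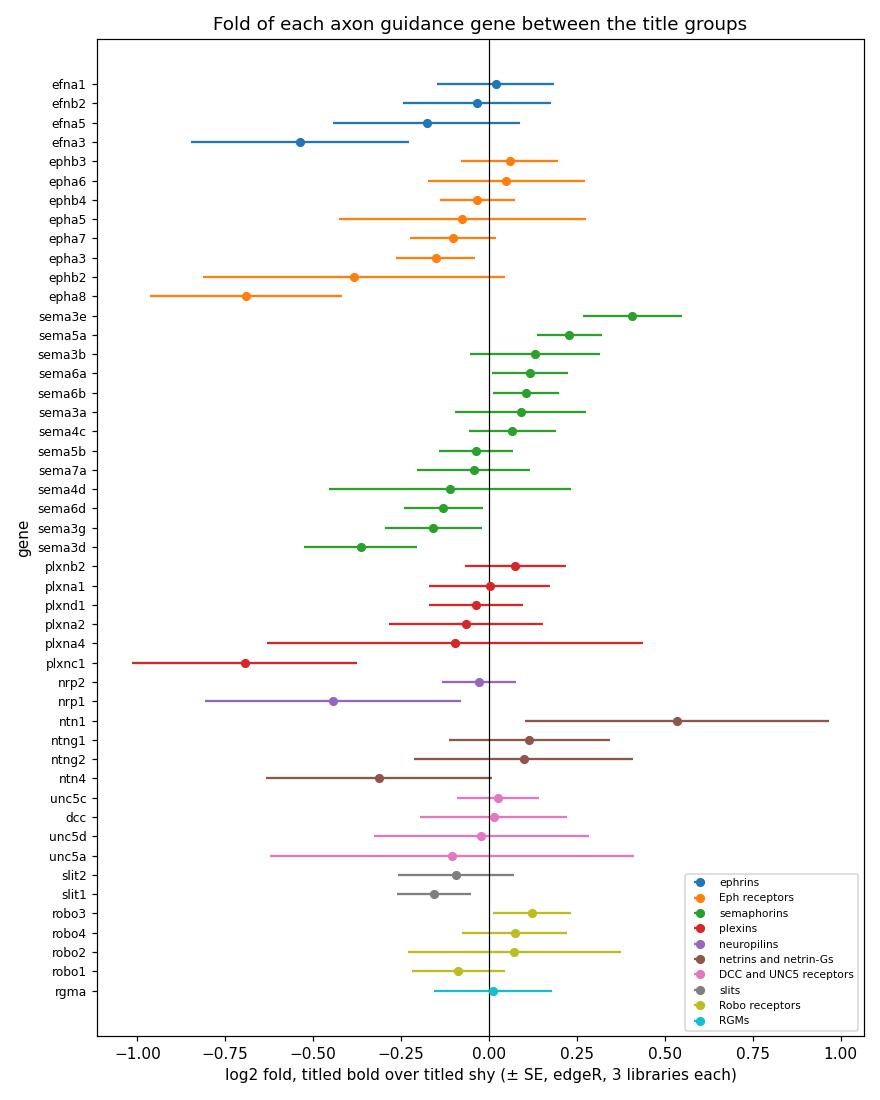
Log2 fold of titled bold over titled shy with its SE for the 48 guidance genes, ordered within families (edgeR, 3 libraries per group). Folds spread between -0.70 for plxnc1 and 0.53 for ntn1, and 44 of the 48 lie within 0.5 of 0.

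The summed level of all 48 genes was 2136 ± 49.5 CPM in titled bold libraries and 2148 ± 78.7 CPM in titled shy libraries (SD, n = 3 each). The summed ligands stood at 1198 ± 57.4 CPM in titled bold libraries and 1186 ± 35.1 CPM in titled shy libraries, and the summed receptors at 938 ± 40.5 CPM in titled bold libraries against 962 ± 47.8 CPM in titled shy libraries. The groups overlapped in these 3 sums and in the sum of each of the 10 families.

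The ephrins comprised 4 genes. The gene efna5, whose product repels retinal axons in the mouse midbrain, had 55.2, 27.4 and 27.7 CPM in titled bold libraries and 48.2, 37.9 and 38.8 CPM in titled shy libraries. Titled bold 1 was the highest of the 6 and the other two titled bold libraries the lowest, so the spread within titled bold exceeded the distance between the groups. The gene efna1 had 21.6, 32.6 and 25.7 CPM in titled bold libraries against 28.5, 24.9 and 25.4 CPM in titled shy libraries, with all titled shy values inside the titled bold range. The transmembrane ligand gene efnb2 averaged 22.6 ± 5.31 CPM in titled bold libraries and 23.2 ± 4.75 CPM in titled shy libraries. The gene efna3 had 5.21, 2.96 and 3.19 CPM in titled bold libraries and 6.83, 4.77 and 4.92 CPM in titled shy libraries, a log2 fold of -0.54 ± 0.31 (edgeR adjusted p = 0.955).

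Of the 8 Eph receptors 2 had folds above 0 and 6 below. The gene epha8, an Eph receptor known from the mouse superior colliculus, had 18.9, 9.003 and 18.8 CPM in titled bold libraries and 24.2, 21.7 and 29.6 CPM in titled shy libraries, a log2 fold of -0.69 ± 0.27 (unadjusted p = 0.0335, edgeR adjusted p = 0.955). All 3 titled bold libraries lay below all 3 titled shy libraries, titled bold 2 farthest. Without titled bold 2 the log2 fold was -0.42. The summed level of the 19 forebrain and midbrain identifiers likewise did not overlap, at 162 to 172 CPM in titled bold libraries and 186 to 205 CPM in titled shy libraries. None of the 19 was at 0 in all libraries. Of the 11 tested ones 3 folds were above 0 and 8 below, and 1 had an unadjusted p under 0.05, against 3.49% of all tested genes. The part of these identifiers in the epha8 values was not tested.

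The other Eph receptors overlapped between the groups. The gene epha7 had 99.1, 90.3 and 109.6 CPM in titled bold libraries and 97.3, 102 and 121 CPM in titled shy libraries. The gene ephb3 had 82.6, 114 and 116 CPM in titled bold libraries around 98.8, 99.8 and 102 CPM in titled shy libraries, so that titled bold held both its highest and its lowest library. The gene epha3 had 49.4, 59.1 and 51.4 CPM in titled bold libraries and 61.5, 54.9 and 61.2 CPM in titled shy libraries, a log2 fold of -0.15 ± 0.11. The gene ephb4, a receptor of venous endothelium, was the most even of the 48, with a highest library only 1.16 times its lowest, and averaged 50.4 ± 3.33 CPM in titled bold libraries and 51.6 ± 3.34 CPM in titled shy libraries.

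The semaphorins, with 13 genes the largest of these families here, held 3 of the 4 genes with an unadjusted p under 0.05. Of all tested genes 3.49% had such a p. Further family members listed only by a LOC number, semaphorins among them, are described below, and 0 of the 35 tested had one. The gene sema3e encodes a secreted semaphorin that binds plexin D1 without a neuropilin. It had 52.5, 73.5 and 65.2 CPM in titled bold libraries and 50.8, 43.8 and 49.5 CPM in titled shy libraries, a log2 fold of 0.41 ± 0.14 (unadjusted p = 0.0184, edgeR adjusted p = 0.955). The groups did not overlap, though titled bold 1 lay only just above titled shy 1. Its receptor gene plxnd1 had 31.8, 37.9 and 31.5 CPM in titled bold libraries and 31.6, 39.0 and 33.2 CPM in titled shy libraries, with groups that overlapped throughout.

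The transmembrane semaphorin gene sema5a had 127, 120.2 and 128 CPM in titled bold libraries and 109.6, 101 and 110.1 CPM in titled shy libraries, a log2 fold of 0.23 ± 0.09 (unadjusted p = 0.0373, edgeR adjusted p = 0.955). Every titled bold library lay above every titled shy library. In the fits that left out 1 library its log2 fold lay between 0.19 and 0.26, with edgeR adjusted p-values of at least 0.417. Its paralog sema5b did not separate the groups, at 89.3 ± 3.69 CPM in titled bold libraries and 91.6 ± 8.87 CPM in titled shy libraries. The gene sema6b, for a transmembrane ligand of plexin A receptors, had 76.1, 79.3 and 77.4 CPM in titled bold libraries and 75.6, 68.0 and 72.8 CPM in titled shy libraries. These did not overlap but almost touched, and the log2 fold was 0.10 ± 0.09.

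The secreted semaphorin gene sema3d, which acts on axons of the zebrafish forebrain and midbrain, had 24.4, 22.9 and 19.9 CPM in titled bold libraries and 23.4, 32.1 and 31.2 CPM in titled shy libraries, a log2 fold of -0.37 ± 0.16 (unadjusted p = 0.0491, edgeR adjusted p = 0.955). Titled shy 1 fell among the titled bold libraries. The plexin A ligand gene sema6a had 115, 144 and 132 CPM in titled bold libraries against 117, 119 and 124 CPM in titled shy libraries, and titled bold 1 was the lowest of the 6. The remaining semaphorins overlapped between the groups, with log2 folds between -0.16 for sema3g and 0.13 for sema3b.

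The receptors of the semaphorins gave no separation of the groups. The plexin gene plxna1, a signalling partner of neuropilins, had 57.1, 37.1 and 41.9 CPM in titled bold libraries and 51.4, 44.0 and 40.7 CPM in titled shy libraries, and both groups averaged 45.3 CPM. The neuropilin gene nrp2 had 144, 162 and 167 CPM in titled bold libraries and 156, 152 and 175 CPM in titled shy libraries. The neuropilin gene nrp1 had 11.3, 7.78 and 4.94 CPM in titled bold libraries against 14.9, 11.2 and 6.63 CPM in titled shy libraries, a log2 fold of -0.44 ± 0.36, so that libraries of either group differed more among themselves than the group means did.

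The plexin gene plxnc1, whose product binds the membrane-anchored semaphorin 7A, had 7.79, 3.89 and 6.53 CPM in titled bold libraries and 9.78, 12.9 and 6.91 CPM in titled shy libraries, a log2 fold of -0.70 ± 0.32 (unadjusted p = 0.0591, edgeR adjusted p = 0.955). The groups overlapped in the range between titled bold 1 and titled shy 3. Its highest library, titled shy 2, and its lowest, titled bold 2, were also the highest and the lowest in the summed level of 11 microglia and leukocyte markers. That sum ran between 337 and 500.0 CPM in titled bold libraries and between 416 and 876 CPM in titled shy libraries, with cd74 at 383 CPM on average. Without cd74, titled bold 2 had 98.2 CPM, against 97.5 to 196 CPM in the other libraries, and was no longer the lowest. Of the 11 markers 5 were lowest and 0 highest in titled bold 2, against 29.3% and 25.4% of all tested genes. Of the 11 folds 1 was above 0 and 10 were below. edgeR called 0 of the 11, and 1 had an unadjusted p under 0.05, against 3.49% of all tested genes. No marker was at 0 in all libraries, and the part of these markers in the plxnc1 values was not tested. The ligand gene sema7a averaged 45.0 ± 6.30 CPM in titled bold libraries and 46.4 ± 7.98 CPM in titled shy libraries.

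**Figure D3:**
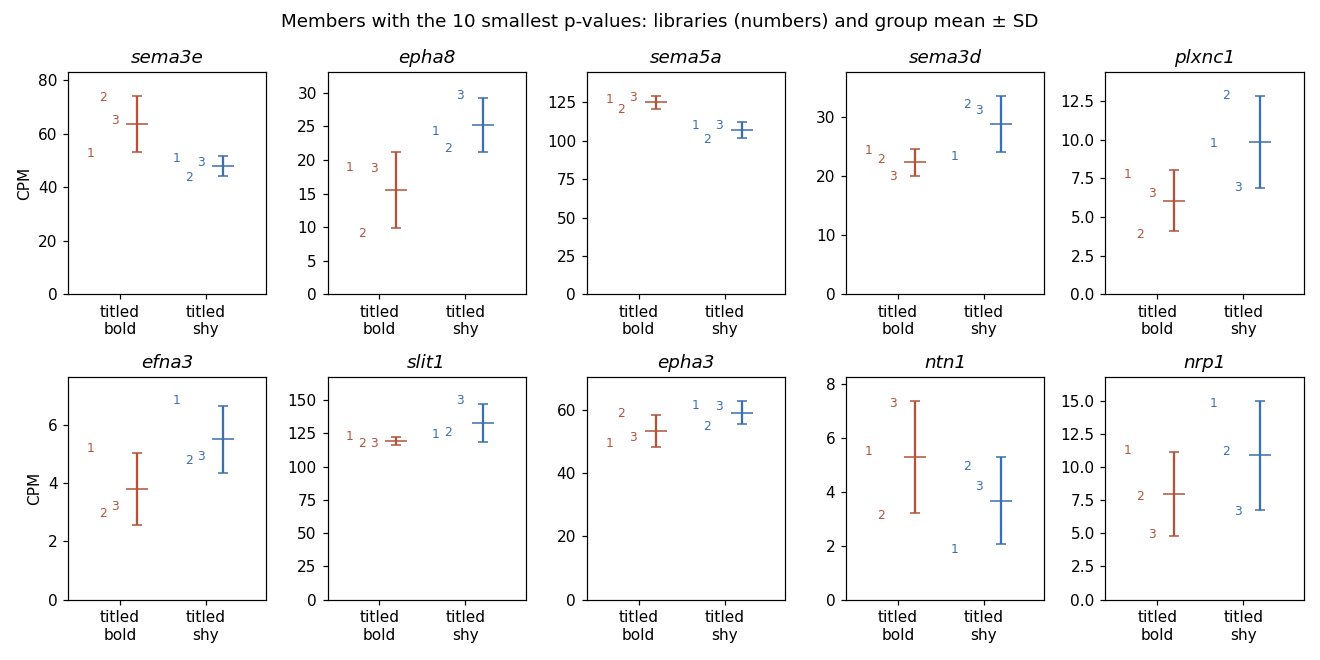
CPM of the 10 guidance genes with the smallest unadjusted p, in titled bold libraries (red, left) and titled shy (blue, right). Numbers mark the libraries by replicate number, bars are the group mean ± SD (n = 3), and the groups part fully only in sema3e, epha8, sema5a and slit1.

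No netrin or netrin receptor gene passed the test between the groups. The gene ntn1, for the secreted netrin that attracts commissural axons in the mouse spinal cord, had 5.50, 3.14 and 7.28 CPM in titled bold libraries and 1.85, 4.95 and 4.21 CPM in titled shy libraries, a log2 fold of 0.53 ± 0.43 (edgeR adjusted p = 0.955). The basement membrane netrin gene ntn4 had 5.88, 2.61 and 3.94 CPM in titled bold libraries and 5.42, 4.77 and 5.30 CPM in titled shy libraries. The gene ntng1 encodes a membrane-anchored netrin-G that binds a synaptic adhesion protein and not DCC. It had 19.0, 18.4 and 11.9 CPM in titled bold libraries against 14.2, 18.7 and 12.5 CPM in titled shy libraries, and each group held a low library.

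The netrin receptor gene dcc averaged 7.69 ± 0.790 CPM in titled bold libraries and 7.62 ± 1.13 CPM in titled shy libraries. The repulsive receptor gene unc5c had 51.2, 48.4 and 51.5 CPM in titled bold libraries and 46.4, 45.7 and 56.4 CPM in titled shy libraries, with the titled bold values inside the titled shy range. The related gene unc5d had 40.3, 15.2 and 30.9 CPM in titled bold libraries around 34.4, 25.5 and 28.0 CPM in titled shy libraries, so titled bold held both its highest and its lowest library. The gene unc5a followed the same order of libraries within titled bold, at 3.97, 0.929 and 2.34 CPM, against 3.66, 1.90 and 2.27 CPM in titled shy libraries.

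The repellent gene slit1 had 122.7, 117 and 118 CPM in titled bold libraries and 124, 125 and 149 CPM in titled shy libraries, a log2 fold of -0.16 ± 0.11 (unadjusted p = 0.171, edgeR adjusted p = 0.955). The groups did not overlap, but titled shy 3 alone stood clear of the rest. Its paralog slit2 had 30.5, 25.3 and 28.7 CPM in titled bold libraries and 25.0, 36.9 and 28.4 CPM in titled shy libraries. Among the receptors, robo3, needed for hindbrain commissures in mammals, had 109, 120.1 and 132 CPM in titled bold libraries and 105, 107 and 120.2 CPM in titled shy libraries. The gene robo1 had 56.2, 54.0 and 53.7 CPM in titled bold libraries between the 62.8, 47.4 and 63.9 CPM of titled shy libraries.

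The Robo gene of vascular endothelium, robo4, averaged 21.7 ± 0.646 CPM in titled bold libraries and 20.6 ± 3.21 CPM in titled shy libraries. The summed level of 19 endothelial and pericyte markers did not overlap between the groups, at 571 to 601 CPM in titled bold libraries and 617 to 707 CPM in titled shy libraries. Of the 19 folds 5 were above 0 and 14 below. edgeR called 0 of the 19, and 2 had an unadjusted p under 0.05, against 3.49% of all tested genes. In 5 of the 19 the groups did not overlap, all lower in titled bold libraries. Over all tested genes 9.53% did not overlap, 5% with lower levels. Among some guidance genes known from vessels, robo4, ephb4, plxnd1, efnb2 and nrp1 overlapped between the groups. Of these, nrp1 had a log2 fold of -0.44, lower in titled bold libraries like the marker sum, and the others had folds nearer 0. The ligand gene of plxnd1, sema3e, did not overlap. It was higher in titled bold libraries, where the marker sum was lower. The part of vessel cells in these values was not tested. The gene rgma, for a membrane-anchored repellent, had 121, 99.8 and 90.8 CPM in titled bold libraries against 124, 82.4 and 103 CPM in titled shy libraries, and its receptor gene neo1, which is outside the rule, averaged 31.8 ± 4.07 CPM in titled bold libraries and 30.8 ± 3.66 CPM in titled shy libraries.

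Ranges over the 6 libraries were read without regard to the titles. In 14 of the 48 genes the highest library had at least 2 times the CPM of the lowest, a range that 31.2% of all tested genes and 22.0% of the tested genes with means inside the CPM range of the 48 reached. Titled bold 2 was the lowest library in 12 of these 14, namely efna3, efna5, epha5, epha8, ephb2, sema4d, plxna4, plxnc1, ntn4, unc5a, unc5d and robo2, and it was the lowest in 46.9% of all tested genes with such a range and in 54.4% of those inside the CPM range of the 48. Titled bold 1 was the highest library in 8 of the 14. It was the highest in 26.2% of all tested genes with such a range and in 28.7% of those inside the CPM range of the 48. The other 2 of the 14 were ntn1, lowest in titled shy 1, and nrp1, lowest in titled bold 3. The excess in titled bold 2 depended on the cut. At 3 times it was the lowest in 5 of 7 genes, against 61.5% of tested genes inside the CPM range of the 48. At 1.5 times it was the lowest in 15 of 24, against 41.0%. Over all 48 genes it was the lowest in 18, or 37.5%, against 29.3% of all tested genes.

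The widest range was that of plxna4, a plexin that transmits class 3 and class 6 semaphorin signals, with 9.56, 2.15 and 2.79 CPM in titled bold libraries and 6.04, 3.67 and 5.87 CPM in titled shy libraries. The Eph receptor gene ephb2 had 10.6, 2.90 and 6.33 CPM in titled bold libraries against 7.40, 6.89 and 11.7 CPM in titled shy libraries. Of the 14 genes 10 averaged under 10 CPM, and the lowest library held between 16 counts, for unc5a, and 99 counts, for nrp1, of these 10. In titled bold 2 the summed level of 15 myelin and oligodendrocyte markers was 5117 CPM, against 2777 to 3342 CPM in the other libraries, and 2724 CPM against 1744 to 2098 CPM without mbpa, the marker with the most reads. The summed level of 16 neuronal markers was 8126 CPM in titled bold 2, against 5867 to 6365 CPM in the other libraries, and without snap25 alone it was 2425 CPM, against 1923 to 2419 CPM. The sums of cerebellar markers (5703 CPM against 4397 to 5371 CPM) and of immature neuron markers (1980 CPM against 1471 to 1802 CPM) were also highest there. Those of microglial and of endothelial markers were lowest there, but not without their most abundant marker. The sums of the other marker lists lay in between. That of radial glia and astrocytes was lowest in titled bold 2 without glula, its most abundant marker, at 4133 CPM against 4182 to 5986 CPM. Of its 12 markers 0 were highest and 2 lowest there. Of the 15 myelin markers 9 were highest and 5 lowest in titled bold 2. Of the 16 neuronal markers 6 were highest and 4 lowest there. Of the 19 cerebellar markers 8 were highest and 7 lowest there, and of the 17 immature neuron markers 3 were highest and 1 lowest. Over all tested genes 25.4% were highest and 29.3% lowest there. No myelin or neuronal marker was at 0 in all libraries, and titled bold 2 also had the lowest total count. The part of the markers and of the total count in the low levels was not tested.

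**Figure D4:**
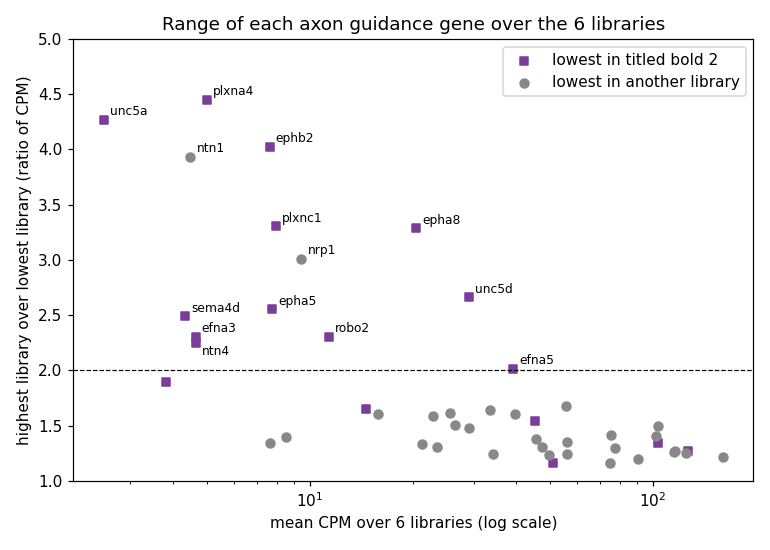
Ratio of the highest to the lowest library (vertical axis) against the mean CPM over 6 libraries (log axis) for the 48 guidance genes. Squares are genes lowest in titled bold 2, which make up 12 of the 14 genes at or above the dashed line at a ratio of 2.

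Without titled bold 1, 9 of the 48 genes had an unadjusted p under 0.05 and 0 were called by edgeR (smallest adjusted p 0.360), where 12.0% of all genes tested in that fit had such a p. Of the 9, sema3e and sema5a were higher and efna3, efna5, epha8, ephb2, plxna4, plxnc1 and sema3d lower in titled bold libraries. In that fit plxna4 had a log2 fold of -1.05 and efna5 of -0.58, against -0.10 and -0.18 with all libraries. Without any other single library the number was between 1 and 3, where between 2.69% and 3.11% of all genes tested had such a p.

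Intracellular and membrane partners of the guidance receptors were read from lists of partners by pathway. edgeR called 0 genes of any list described at an adjusted p under 0.05. Over all tested genes 3.49% had an unadjusted p under 0.05, 1.74% with higher and 1.75% with lower levels in titled bold libraries. Partners of Eph receptors had 8 folds above 0 and 15 below among 23 tested genes, with a median log2 fold of -0.05. The phosphatase gene ptpn13 averaged 35.5 ± 8.45 CPM in titled bold libraries and 51.6 ± 9.48 CPM in titled shy libraries, and the Rac GTPase-activating gene chn2 47.6 ± 6.01 CPM in titled bold libraries against 38.3 ± 1.82 CPM in titled shy libraries, both at an unadjusted p under 0.05. Semaphorin and plexin partners had 14 folds above 0 and 14 below, a median of 0.01, and 0 genes at an unadjusted p under 0.05. The gene dpysl3 (LOC109635851), of the collapsin response mediator family, averaged 475 ± 67.3 CPM in titled bold libraries against 406 ± 14.4 CPM in titled shy libraries.

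Netrin pathway partners had 13 folds above 0 and 17 below, a median of -0.02 and 0 genes at an unadjusted p under 0.05. The actin regulator genes enah and waslb (LOC109642783) had the smallest p-values, at 12.2 ± 3.32 CPM in titled bold libraries and 17.1 ± 2.15 CPM in titled shy libraries for enah, and 6.73 ± 1.94 CPM in titled bold libraries against 9.52 ± 0.667 CPM in titled shy libraries for waslb. Slit and Robo partners had 7 above and 14 below, a median of -0.06 and likewise 0 such genes, led by the myosin gene myo9b at 41.7 ± 9.58 CPM in titled bold libraries against 52.1 ± 4.05 CPM in titled shy libraries and the glypican gene gpc1a (LOC109645487) at 86.4 ± 21.9 CPM in titled bold libraries against 68.3 ± 9.77 CPM in titled shy libraries.

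Growth-related genes of axons had 18 folds above 0 and 8 below among 26, with a median of 0.04. The adhesion gene alcam averaged 35.2 ± 4.53 CPM in titled bold libraries and 24.7 ± 3.61 CPM in titled shy libraries, the only member at an unadjusted p under 0.05, and the tubulin-binding gene stmn2a (LOC109632972) 655 ± 139 CPM in titled bold libraries against 523 ± 17.3 CPM in titled shy libraries. Planar polarity, Wnt and Shh guidance genes had 11 above and 9 below with a median of 0.02, and ptch1, the Shh receptor gene, averaged 0.728 ± 0.429 CPM in titled bold libraries against 2.03 ± 0.267 CPM in titled shy libraries at an unadjusted p of 0.0185. The cadherin gene celsr1 averaged 4.64 ± 0.556 CPM in titled bold libraries and 6.87 ± 1.60 CPM in titled shy libraries. The list of repulsive myelin and RGM or Nogo receptor genes had 13 above and 9 below among 22 tested genes, with a median of 0.03. Of the 22, 3 had an unadjusted p under 0.05, against 3.49% of all tested genes, and all 3 had higher levels in titled bold libraries. These were the Nogo receptor family gene rtn4rl2a (LOC109627275), the leucine-rich repeat gene lingo2b (LOC109628004) and the Nogo receptor family gene rtn4rl2b (LOC109624290), the last named after its values were seen. Only rtn4rl2a was called by DESeq2, and rtn4rl2b averaged 21.9 ± 8.93 CPM in titled bold libraries and 12.7 ± 3.85 CPM in titled shy libraries.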

How the data were processed

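Raw counts of reads per gene were deposited, 1 file per library. Per the submitters' processing notes, Trimmomatic 0.30, TopHat2 2.0.11 and HTSeq 0.11.1 were used, on libraries made with a stranded mRNA kit per the labels' protocols. Genome build, annotation and strand setting were not given in the sources used here, so counts of close paralogs or overlapping genes carry an unknown uncertainty. Of 24395 identifiers, 19755 passed edgeR's filterByExpr. These were scaled by TMM and compared in a two-sided quasi-likelihood test (edgeR 4.0.16 with robust glmQLFit, R 4.3.3), with Benjamini-Hochberg adjustment over all tested genes. An SE is the size of the log2 fold divided by the root of the F statistic. Separate fish behind the libraries are not stated, so p-values reflect library spread alone, which may be technical. Alternatives used DESeq2 1.42.0, limma 3.58.1, other scalings and filters, a replicate block and leaving out each library. The steps were tested on simulated data. Genes given library by library were the 2 of highest mean CPM in each family and the 10 of smallest p, and from each partner list the 2 of smallest p were named, except for 1 list and 1 gene that are not reported here. Other genes were named after their values were seen. Members and lists were chosen with earlier results of these data known. LOC numbers took symbols from RefSeq assembly ASM2471397v2, which held 11455 of 14730. Plots used Python 3.11.15 and matplotlib 3.10.9.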

Additional observations from a re-analysis of the deposited data

How the results depend on the processing

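No guidance gene was called in any of the 15 alternative fits, while over all genes DESeq2 called 13. The number of guidance genes at an unadjusted p under 0.05 lay between 1 and 9 when 1 library was left out, with 9 without titled bold 1. Of all genes tested 12.0% had such a p without titled bold 1, and between 2.69% and 3.11% without another library. The median log2 fold of the 48 genes lay between -0.09 and 0.03 in these fits, and was -0.06 with library totals. Means of the family sums moved by less than their SD over libraries under every scaling and without any 1 library. A mean over 6 libraries can hardly move by an SD when 1 is left out or all are rescaled. This outcome therefore does not measure how stable the levels were. The mean sum of the 48 genes was 2142 CPM with all libraries and between 2118 and 2170 CPM without 1 of them. Of 234 folds recomputed under the fits that kept all libraries, 8 changed sign, each from a fold near 0. With upper-quartile scaling plxna1 had -0.0044, with library totals efna1 had -0.021, plxna1 -0.023, rgma -0.019 and unc5c -0.0035, with limma-voom efna1 had -0.010 and plxna1 -0.0098, and with the replicate block plxna1 had -0.015, and the cause was not tested. Leaving out 1 library changed the sign of 11 of the counted genes, with log2 folds between -0.15 and 0.17 for efna1, -0.18 and 0.013 for epha7, -0.026 and 0.22 for ephb3, -0.071 and 0.051 for nrp2, -0.18 and 0.13 for plxna1, -0.13 and 0.058 for plxnd1, -0.13 and 0.17 for rgma, -0.21 and 0.0027 for robo1, -0.20 and 0.079 for slit2, -0.030 and 0.14 for unc5c and -0.33 and 0.28 for unc5d. Several of the 48 genes outside this count changed sign too, while others, such as sema6b, did not. Without titled bold 2 the log2 fold of epha5 went from -0.076 to 0.23 and that of plxna4 from -0.097 to 0.25. Without titled bold 1 that of robo2 went from 0.071 to -0.30. Same-numbered libraries of the 2 groups deviated together with r = 0.316, 0.136 and 0.0798 over genes, while titled bold 2 and titled shy 3 had 0.0843. By chi-square per gene, smaller for more similar libraries, titled bold 1 was closest to titled shy 1 (13.2). Titled bold 3 was closest to titled shy 3 (12.8). Titled bold 2 was closer to titled bold 3 (18.0) than to titled shy 2 (27.7). The replicate numbers are not said to pair fish, so the main fit did not use them as pairs. Whether same-numbered libraries shared a processing step was not tested. With the replicate block 1160 of all genes, or 5.87%, had an unadjusted p under 0.05, against 690, or 3.49%, without it. Of the 48 guidance genes 4 had such a p with the block, and 0 genes were called. Among the 4, sema3d (unadjusted p = 0.0601, edgeR adjusted p = 0.807) gave way to nrp1 (unadjusted p = 0.0448, edgeR adjusted p = 0.807). Adding 37 identifiers with family symbols, an alternative chosen after seeing the data, left the number called at 0 and the number at an unadjusted p under 0.05 at 4.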

Other observations

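Beside the 48 genes, 37 identifiers listed only by a LOC number carry a symbol of these families in the RefSeq annotation, among them duplicates of genes described above. Of these, 35 passed the filter, 13 had log2 folds above 0 and 22 below, with a median of -0.12, and edgeR called 0, with 0 at an unadjusted p under 0.05. DESeq2 called 0. How reads were shared between such duplicates is not given in the sources used here. The groups did not overlap in 2 of the 35, or 5.71%, where they did not overlap in 9.53% of all tested genes. These were unc5cb (LOC109626072), with 43.0, 36.2 and 35.8 CPM in titled bold libraries and 34.6, 30.5 and 34.4 CPM in titled shy libraries, and sema4f (LOC109634946), with 15.4, 14.2 and 15.7 CPM in titled bold libraries and 17.9, 19.1 and 15.9 CPM in titled shy libraries.

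Of the 37 identifiers 19 were lowest and 5 highest in titled bold 2, and of the 35 tested ones 18 and 5. Over all tested genes 29.3% were lowest and 25.4% highest there. Of the 19, only sema4f, above, is given library by library. Of the 5, 4 are given here, and the fifth was efna1a (LOC109639118). The secreted semaphorin gene sema3h (LOC109630577) had 174, 267 and 195 CPM in titled bold libraries and 183, 191 and 163 CPM in titled shy libraries. The gene sema3aa (LOC109632697) had 86.4, 129 and 101 CPM in titled bold libraries against 85.4, 91.9 and 85.9 CPM in titled shy libraries, while the listed sema3a was highest in titled bold 1. The second epha6 identifier (LOC109625032) had 51.9, 75.5 and 71.9 CPM in titled bold libraries and 50.6, 68.1 and 52.3 CPM in titled shy libraries. The plexin gene plxna3 (LOC109641233) had 221, 274 and 242 CPM in titled bold libraries and 229, 234 and 242 CPM in titled shy libraries. The genes in this paragraph were chosen after their values were seen.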
